A study of Mus musculus with 2 samples.

Results

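Mast cells of colitis-associated tumors were taken as all cells that the deposited annotation names Mast, in both libraries of the series. They were 1517 of 38883 cells, 732 of 20312 in the Mir34a F/F library and 785 of 18571 in the Mir34a ΔMye library. The other 10 annotated types were B cells, basophils, dendritic cells, endothelium, epithelium, erythroid cells, fibroblasts, macrophages, neutrophils and T cells. Basophils, with 48 and 40 cells, served as the closest type for comparison.

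Tumors of the mouse colon were induced with azoxymethane, a carcinogen given at 10 mg/kg, and with dextran sulfate sodium (DSS), which injures the epithelium and causes colitis. Mice of both groups began at 6 to 10 weeks of age, received DSS in the drinking water for 5 days per cycle at 2.5% in the earlier cycles and 2% in the third, and were sacrificed at day 110. Both groups carried the floxed Mir34a allele, and the ΔMye group in addition carried LysM-Cre, a Cre recombinase expressed from the Lyz2 locus that is active in macrophages, neutrophils and other myeloid cells and whose activity in mast cells was not measured. Each library pooled 6 to 8 tumors of 3 mice, dead cells were removed, 30000 cells were loaded, and the annotation does not tell the mice apart. Each genotype was measured in 1 library, so the genotypes were not tested against each other, and all intervals below are 95% intervals of counting error in these 2 libraries.

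Mast cells are tissue-resident granulocytes that depend on Kit, the receptor of stem cell factor, and carry the high-affinity IgE receptor. They store histamine, proteoglycans and proteases in granules and release cytokines and lipid mediators after activation. In rodents, mucosal mast cells are known for the chymases Mcpt1 and Mcpt2, and connective tissue mast cells for Mcpt4, Cma1, tryptases and Mrgpr receptors. Basophils share much of this program but circulate in blood and carry Mcpt8 and Prss34.

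Promoter windows of 4 mast cell genes and the mature microRNA deleted in the study are shown first because the genes are described throughout. The windows run from 250 bases before to 50 bases after the start site on the gene's strand (RefSeq, GRCm38.p6), at chr3:20242132-20242431 on the minus strand for Cpa3, chr14:56017714-56018013 on the plus strand for Mcpt1, chr14:56062261-56062560 on the minus strand for Mcpt4 and chr19:11623670-11623969 on the minus strand for Ms4a2. Capitals mark GATAA, the core letters bound by GATA factors, on either strand.
Cpa3: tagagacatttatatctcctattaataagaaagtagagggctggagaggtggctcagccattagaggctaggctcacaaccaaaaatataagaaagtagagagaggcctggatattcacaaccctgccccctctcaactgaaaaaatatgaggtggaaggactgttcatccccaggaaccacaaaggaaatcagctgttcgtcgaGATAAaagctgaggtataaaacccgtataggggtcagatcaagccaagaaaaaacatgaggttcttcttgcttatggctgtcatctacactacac
Mcpt1: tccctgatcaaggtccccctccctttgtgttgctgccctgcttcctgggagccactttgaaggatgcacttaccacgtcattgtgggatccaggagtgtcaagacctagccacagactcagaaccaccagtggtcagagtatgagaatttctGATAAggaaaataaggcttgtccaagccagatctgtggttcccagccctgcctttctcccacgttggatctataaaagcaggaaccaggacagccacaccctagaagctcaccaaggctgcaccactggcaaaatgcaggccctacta
Mcpt4: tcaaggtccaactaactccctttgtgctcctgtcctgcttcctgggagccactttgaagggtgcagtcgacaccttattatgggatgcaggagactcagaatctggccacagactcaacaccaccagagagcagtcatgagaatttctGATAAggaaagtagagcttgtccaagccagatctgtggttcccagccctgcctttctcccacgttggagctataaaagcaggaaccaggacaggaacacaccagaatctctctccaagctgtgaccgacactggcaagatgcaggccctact
Ms4a2: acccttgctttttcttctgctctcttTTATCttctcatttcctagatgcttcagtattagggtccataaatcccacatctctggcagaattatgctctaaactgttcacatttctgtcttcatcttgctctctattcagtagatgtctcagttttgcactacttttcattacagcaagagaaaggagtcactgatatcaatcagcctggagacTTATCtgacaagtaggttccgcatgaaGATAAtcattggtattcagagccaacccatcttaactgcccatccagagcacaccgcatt

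GATAA was present 1 time each in the windows of Cpa3, at position -45 from the start site, Mcpt1, at -98, and Mcpt4, at -102. Ms4a2, which encodes the IgE receptor beta chain, held it 3 times. The windows of Mcpt1 and Mcpt4 shared an unbroken run of 53 bases, downstream of the motif in both. Cma1, Fcer1a and the basophil gene Prss34 also held 1 match each, and the windows of Kit, Gata2, Hdc and Mcpt8 held none. Of 27025 genes with a window, 28.4% had a match, as did 727 (18.9%) of the 3841 genes that had both a window and a UMI in 10% of mast cells. Among 47 genes with a window that mast cells led when basophils were set aside (described below), 25 had a match (53.2%). A match of these letters is a description and not a binding site.

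The microRNA deleted in the ΔMye group, miR-34a-5p, lies at chr4:150068473-150068494 on the plus strand of GRCm38.p6, and capitals mark its seed, bases 2 to 8. Kit is a known miR-34a target.
miR-34a-5p: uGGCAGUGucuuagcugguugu

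The feature for the primary Mir34a transcript had 3 UMIs in mast cells of the F/F library and 6 in those of the ΔMye library. The feature named Lyz2, the gene whose locus drives Cre, had 4 and 9 UMIs in mast cells. Its level was 0.0123 and 0.0102 UMIs per 10000, against 2.00 and 0.415 in macrophages. What part of the Lyz2 reads this feature counted was not tested. A level here and below is the sum of a gene's unique molecular identifiers (UMIs, each 1 captured transcript) over the cells of a group per 10000 UMIs of that group. At these counts neither the deletion nor Cre could be checked in mast cells.

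Mast cells made up 3.60% (3.35 to 3.87) of the cells of the F/F library and 4.23% (3.94 to 4.53) of those of the ΔMye library. Without epithelial cells in the denominator the shares were 8.42% and 9.02%. Mast cells of the ΔMye library were deeper, with a median of 8456 UMIs and 2596 genes per cell against 2951.5 UMIs and 1365.5 genes in the F/F library, and the median UMI number was higher in that library in each other type too. Their median mitochondrial share was 4.42% against 3.21%. The libraries shared 96 cell barcodes over all cells and 0 among mast cells. Because the libraries differed in depth, shares of cells with a UMI are given after each cell was thinned to 1000 UMIs, unless stated otherwise. Filters on the share of cells with a UMI were applied before thinning.

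Cell types were assigned from the same transcripts, so what follows describes the annotation and is no independent check of it. The 4 markers were Cpa3, Kit, Mcpt1 and Mcpt2. After thinning, 71.4% and 76.5% of mast cells in the F/F and ΔMye libraries held UMIs of at least 3 of them. The share was 16.7% and 35.0% in basophils and at most 6.67% in any other type. Without thinning, the shares in mast cells were 82.7% and 93.2%. Cpa3, mast cell carboxypeptidase, had a level of 29.3 and 39.5 in mast cells and of 7.99 and 12.2 in basophils. Kit stood at 7.28 and 7.32 in mast cells and at 1.79 and 2.71 in basophils, and dendritic cells (1.05 and 0.939) and endothelium (1.64 and 0.972) also carried it. In both libraries, mast cells had the highest level of each of the 4 markers, with basophils next.

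**Figure D1:**
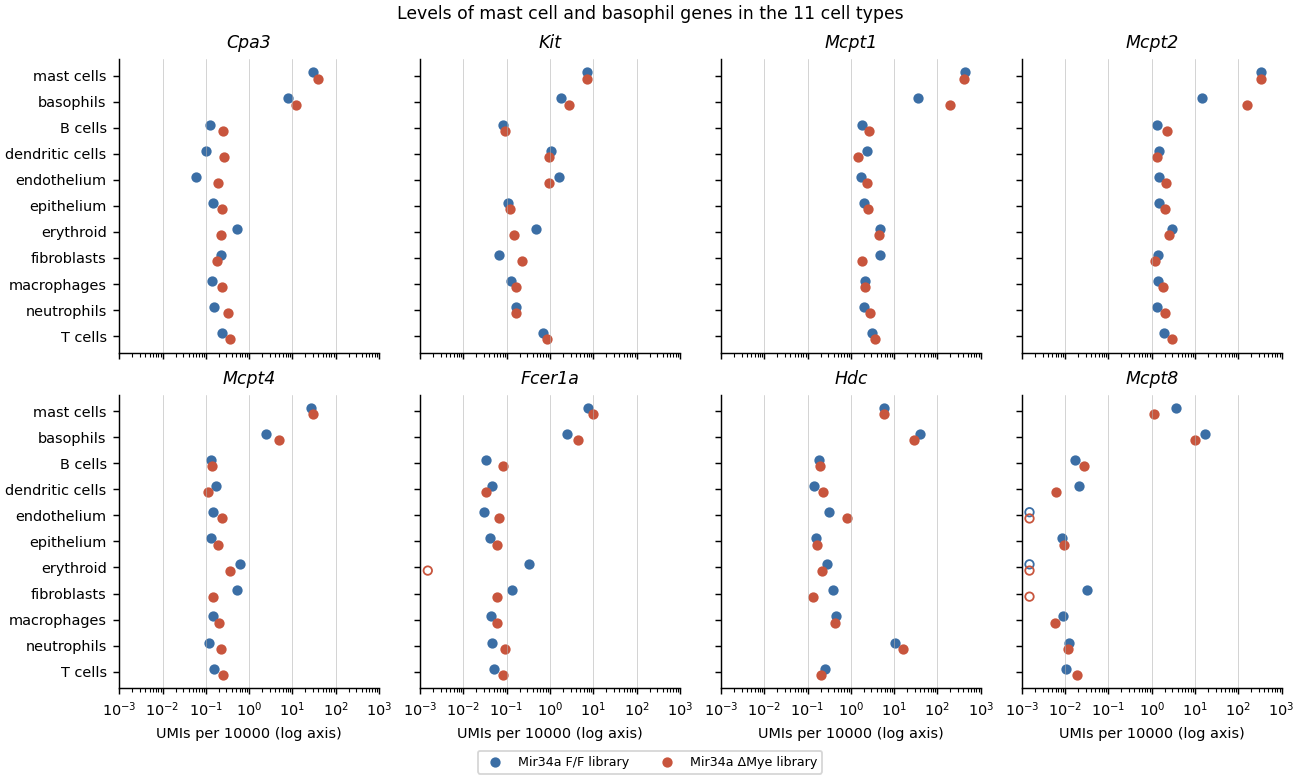
Level of 8 genes (UMIs per 10000, log axis) in the 11 cell types, with 1 point for each library and open points for a count of 0. Mast cells stood highest for Cpa3, Kit, Mcpt1, Mcpt2, Mcpt4 and Fcer1a, and basophils for Hdc and Mcpt8.

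The mucosal chymases dominated the mast cell transcripts. Mcpt1 had 144465 UMIs in mast cells of the F/F library and 358140 in those of the ΔMye library, a level of 443 and 407. Mcpt2 stood at 335 and 344, and both genes together made up 7.78% and 7.52% of all mast cell UMIs. The other types without basophils held Mcpt1 at 1.48 to 4.81. In these types Mcpt2 and Mcpt1 UMIs mostly stood in a ratio between 0.583 and 0.918, with fibroblasts of the F/F library at 0.286, and the ratio in mast cells was 0.755 and 0.845. Whether free RNA from mast cells gave these UMIs was not tested.

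Single mast cells differed widely in these transcripts. Mcpt1 and Mcpt2 together took a median of 2.29% of a cell's UMIs in the F/F library, with quartiles of 0.304% and 8.12% and a highest cell of 26.5%. In the ΔMye library the median was 3.15%, the quartiles 0.523% and 8.54% and the highest cell 34.5%. At least 5% of the UMIs came from both genes in 266 and 315 mast cells, and 36 and 8 mast cells held none of their UMIs.

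The connective tissue proteases were present in the same tumors. Mcpt4, a connective tissue chymase, stood at 26.8 and 29.4, Cma1, the counterpart of human chymase, at 15.8 and 22.7, and the tryptase Tpsb2 at 22.7 and 30.7. The second tryptase, Tpsab1, stood at 5.23 and 4.71, and Cma2, a further chymase, at 2.58 and 3.39. These paralogs lie close in sequence, so their separate levels depend on how reads that match several of them were assigned.

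Most single cells held both sets. After thinning, 67.6% (64.0 to 71.1) of mast cells of the F/F library and 75.4% (72.2 to 78.3) of those of the ΔMye library held UMIs of Mcpt1 or Mcpt2 together with UMIs of Mcpt4, Cma1 or Tpsb2. The mucosal proteases alone were seen in 22.7% and 18.6%, the connective tissue proteases alone in 4.81% and 3.07%, and neither in 4.81% and 2.94%. In T cells, which lack a mast cell program, 2.60% and 3.82% held both sets and 35.4% and 34.1% the mucosal proteases alone at the same depth, and 2.36% and 3.29% the connective tissue proteases alone. Median depth before thinning was 3548 and 8043 UMIs in T cells. The share of mast cells with the mucosal proteases alone was below that of T cells in both libraries, as was the share with the connective tissue proteases alone in the ΔMye library. Each cell falls in a single category, so the large share of mast cells with both sets limits their shares with a set alone. The comparison with T cells therefore cannot decide whether these shares reflect expression.

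Genes led by mast cells were taken as those at least 4-fold above the highest of the other 10 types in both libraries, among 4818 genes with a UMI in 10% of mast cells of each library. Cell types were assigned from the same transcripts, so this is a description. It held for 5 genes (0.104%), namely Cma2, Mcpt4, the Mas-related receptor Mrgprb2, Maob, which encodes a monoamine oxidase, and Speer4e. Mcpt4 was 10.7-fold and 5.97-fold above basophils, the next type in both libraries. Cma2 was 16.8-fold and 38.2-fold above basophils, a log2 ratio of 4.07 (2.51 to 6.35) and 5.25 (3.90 to 7.13), where it rested on 3 and 4 UMIs. Its UMIs in mast cells were concentrated, with 5 cells holding 65.9% and 56.1% of them. Mrgprb2, a receptor of cationic peptides and drugs, had 145 and 323 UMIs in mast cells and 1 and 2 in basophils. Maob had 2 and 7 UMIs in fibroblasts, its next type. The log2 intervals of Mrgprb2 (0.62 to 8.43 and 1.18 to 6.10) and Maob (0.72 to 5.66 and 1.61 to 3.98) reached below 4-fold in both libraries. That of Speer4e (1.64 to 5.47), on 3 UMIs in basophils, did so in the ΔMye library. These counts therefore do not place Mrgprb2, Maob and Speer4e above 4-fold in both libraries.

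Basophils set the limit for most genes. When they were set aside, an alternative chosen after the data were seen, 63 genes (1.31%) were led by mast cells, and for 59 of them basophils were the highest other type in both libraries. Ranked by the smaller of both libraries' ratios, the first were Mcpt2 (112-fold and 119-fold) and Mcpt1 (92.3-fold and 92.2-fold). Cma1 followed at 89.2-fold and 77.1-fold, and Tph1, tryptophan hydroxylase of serotonin synthesis, at 84.2-fold and 66.1-fold. Cpa3 was 55.8-fold and 108-fold higher. Kit, at 4.44-fold and 7.53-fold, was limited by endothelium. Further members were Tpsb2, Mcpt9, Tpsg1, Cd200r3, Ms4a2, Fcer1a, Cyp11a1, Slc18a2, Il13, Ccl1, Gata2, Rab27b, Il4 and Alox5, and genes less tied to mast cells in textbooks such as Hs6st2, Dcc, Car8 and Arpp21. Some ratios rested on few UMIs of the highest other type. Cma1 had 12 in endothelium of the F/F library and 4 in erythroid cells of the ΔMye library. Cd200r3 and Dcc had 1 in erythroid cells of each library, as had Mcpt9 and Il13 in the ΔMye library. Arpp21 had 1 in endothelium of the F/F library. In the F/F library the log2 intervals of Kit (1.88 to 2.44) and Il4 (1.86 to 5.11) reached below 4-fold. That of Il13 (1.91 to 9.69) did so in the ΔMye library.

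Over the 22 groups of cell type and library, the genes whose level followed Cpa3 most closely by Spearman's rho, among 4170 genes, were Gzmb (0.845), Car8 (0.822), Fcer1a (0.804), Cyp11a1 (0.789), Tpsab1 (0.785), Clnk (0.775), Mcpt2 (0.762) and Angpt1 (0.759). The groups share 2 libraries and their free RNA, so the values are descriptive.

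Mast cells and basophils were then compared directly among 5467 genes with a UMI in 10% of the cells of either type in each library. In both libraries 17 genes (0.311%) were at least 4-fold higher in mast cells and 207 (3.79%) at least 4-fold higher in basophils. A gene could pass this filter through the type where it was high alone, and these counts and those of list members carry that limit. Over all genes the median log2 ratio of mast cells over basophils was 0.27. After thinning, 16.7% and 35.0% of cells annotated as basophils held 3 of the 4 mast markers, and 6 of 48 and 13 of 40 had at least 1% of their UMIs from Mcpt1 and Mcpt2. The summed level of the 4 mast markers in basophils was 60.3 in the F/F library and 365 in the ΔMye library. Ratios of mast genes over basophils in the ΔMye library stand beside this, and its part in them was not tested.

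Besides Cma2 and Mcpt4, mast cells exceeded basophils for the chymase Mcpt9, with levels of 5.16 against 0.717 in the F/F library and 4.23 against 1.18 in the ΔMye library. Ccl7, a monocyte chemokine, was 2.79 against 0.0512 and 4.61 against 0.356. Ahr, the aryl hydrocarbon receptor, was 4.77-fold and 3.52-fold higher, and Cd34, a sialomucin of progenitors and mast cells, 5.92-fold and 3.37-fold higher. Fdx1, which donates electrons to steroid hydroxylases such as Cyp11a1, was 7.91-fold and 11.2-fold higher. Hspa1b, an inducible heat shock protein, and Smco4 completed the leading genes with Cpa3. Of these named genes, Mcpt9, Ahr and Cd34 were past 4-fold in the F/F library alone and Cpa3, at 3.67-fold and 3.24-fold, in neither. After each cell was thinned to 1000 UMIs, the 48 and 40 basophils held few UMIs of several of these genes. Cma2 had 0 in both libraries, which puts its log2 ratio at 2.21 or more and 1.53 or more against the floor of 3 UMIs. Fdx1 had 2 and 0, a log2 ratio of 1.89 (0.0023 to 4.96) in the F/F library and at least 1.28 in the ΔMye library. Smco4 had 1 and 0, at 2.23 (-0.30 to 7.55) and at least 0.65. Cma2 was thus past 4-fold in the F/F library, while these counts do not place it in the ΔMye library, or Fdx1 and Smco4 in either library, on one side of 4-fold. Ccl7 had 0 and 5, a log2 ratio of at least 2.59 and of 2.12 (0.88 to 3.75). The smaller of its log2 ratios in the 2 libraries was 3.70 on summed UMIs and 2.16 with means over cells. Hspa1b had 4 and 6, a log2 ratio of 2.50 (1.13 to 4.38) and 1.56 (0.42 to 3.01). Both intervals span 4-fold, so these counts do not place it on one side of 4-fold in either library. Mcpt4 kept 11 and 15 UMIs in basophils and a log2 ratio of 3.58 and 2.82.

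The transcript of the enzyme of histamine synthesis was present in both types and higher in basophils. Hdc, histidine decarboxylase, stood at 5.98 and 5.87 in mast cells and at 39.0 and 28.7 in basophils, 6.53-fold and 4.89-fold higher in the latter. Neutrophils held Hdc at 10.8 and 16.2, above mast cells. The annotated basophils also carried neutrophil markers, described below, and their part in the Hdc ratio was not tested. Tph1 had the opposite order, 6.97 and 6.87 in mast cells against 0.922 and 3.42 in basophils. Slc18a2, which loads amines into granules, stood at 2.52 and 3.42 in mast cells and at 3.59 and 4.20 in basophils. Of 11 granule and amine genes tested against basophils, 0 were 4-fold higher in mast cells and 1, Hdc, was 4-fold higher in basophils, against 0.311% and 3.79% of all genes.

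The basophil proteases separated the types in the other direction. Mcpt8 stood at 17.0 and 10.2 in basophils and at 3.56 and 1.10 in mast cells. In mast cells it was concentrated, with 5 cells holding 59.1% of its 1160 UMIs in the F/F library and 50.8% of 971 in the ΔMye library. Prss34 stood at 3.89 and 3.22 in basophils and at 0.0921 and 0.0705 in mast cells, 42.3-fold and 45.7-fold lower in mast cells. The 10 leading basophil genes were Acod1, Rdh12, G0s2, S100a9, Stfa2l1, Cstdc4, Ccl9, S100a8, Ccl6 and Wfdc21. Before thinning, Rdh12, G0s2, Stfa2l1, Cstdc4, Ccl9 and Wfdc21 of these were seen in under 10% of mast cells of both libraries, and Acod1 in 5.87% in the F/F library. They passed the filter through basophils alone. S100a8 and S100a9 are abundant in neutrophils. All 8 of 8 neutrophil markers were 4-fold higher in the annotated basophils, against 3.79% of all genes. Their summed level was 576 and 467 in basophils and 9.42 and 8.11 in mast cells. Of the 8 markers, 4 passed the filter in mast cells. What part neutrophil RNA or doublets have in these genes was not tested.

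**Figure D2:**
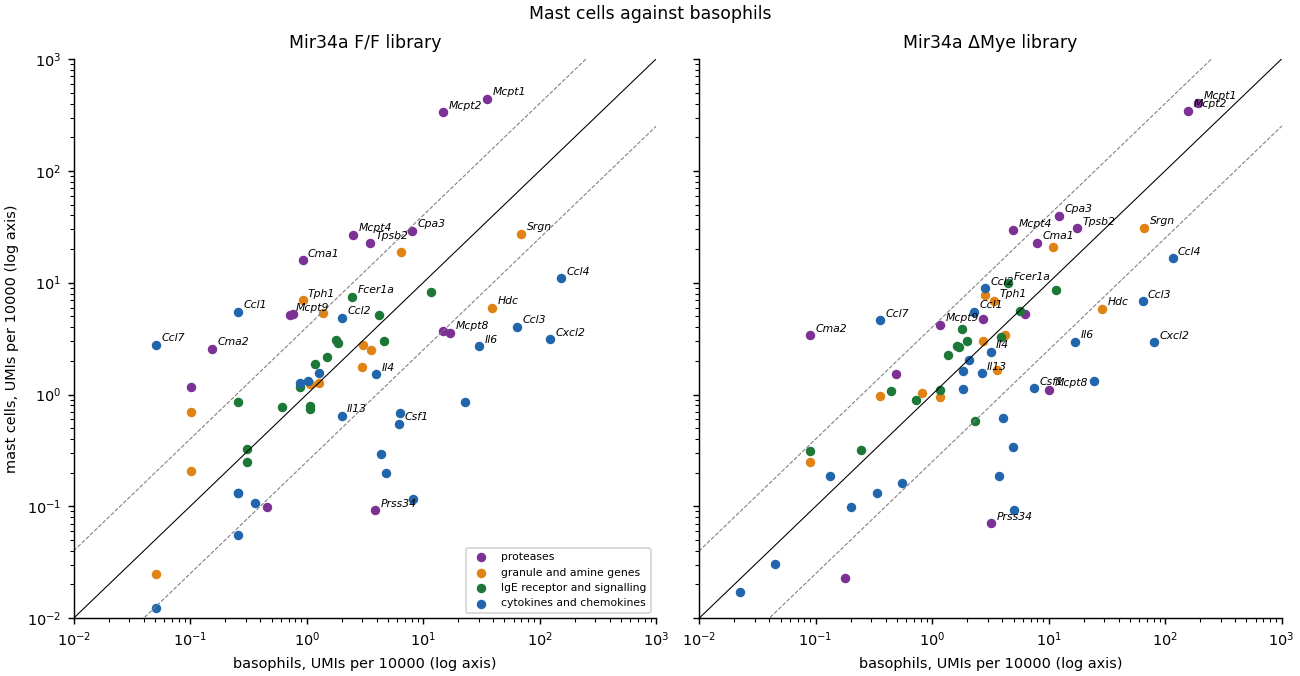
Level in mast cells (vertical, UMIs per 10000, log axis) against basophils (horizontal, log axis) for 4 gene lists in each library, with dashed lines at 4-fold. Mcpt4, Cma2 and Ccl7 lie above the upper line in both libraries, and Hdc, Ccl3, Ccl4, Il6, Csf1 and Cxcl2 below the lower line.

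The IgE receptor chains were carried by both types. Fcer1a, the binding chain, stood at 7.51 and 9.88 in mast cells and at 2.46 and 4.49 in basophils, and Ms4a2 at 3.10 and 3.82 against 1.79 and 1.80. Fcer1g, the shared signalling chain, was highest in macrophages, at 16.9 and 15.1 against 8.29 and 8.52 in mast cells. Of 15 IgE receptor and signalling genes tested against basophils, 0 were 4-fold apart in either direction, against 0.311% and 3.79% of all genes, 9 were higher in mast cells in both libraries and 4 higher in basophils. Over all 5467 genes these numbers were 2687 and 1432, so the list stood near all genes.

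Among receptors of growth factors and cytokines, Il1rl1, the receptor of the alarmin Il33, stood at 6.35 and 7.73 in mast cells and at 3.02 and 3.25 in basophils. Csf2rb, the shared beta chain of the Il3, Il5 and Gm-csf receptors, stood at 3.18 and 3.85, and Il9r at 0.332 and 0.407. Of 12 such receptors tested against basophils, 3 were higher in mast cells in both libraries and 6 higher in basophils. Over all 5467 genes these numbers were 2687 and 1432. Among the ligands of the listed receptors, Il4 is described with the cytokines below. Kitl, the Kit ligand, was highest in endothelium, at 4.23 and 4.77, and Il33 in epithelium of the F/F library (0.170) and fibroblasts of the ΔMye library (0.530). Il9 had 0 and 1 UMIs in mast cells. Il3 had 0 UMIs in the F/F library, which allows a count of up to 3, and 32 in the ΔMye library, 31 of them in 5 cells.

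Among transcription factors, Gata2, which is needed for mast cell identity, stood at 4.47 and 6.00 in mast cells and at 6.92 and 4.51 in basophils. Mitf, required for mast cell development, stood at 1.27 and 1.75 against 0.512 and 0.889. Cebpa, a basophil and granulocyte factor, was 10.9-fold and 10.8-fold higher in basophils, on 17 and 26 UMIs there, and Cebpb was 10.0-fold and 12.3-fold higher. As given above, the annotated basophils carried neutrophil markers, whose part in the ratios of Cebpa and Cebpb was not tested.

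For lipid mediators, Hpgds, hematopoietic prostaglandin D synthase, stood at 2.39 and 2.62 in mast cells and at 0.973 and 1.24 in basophils. Alox5, the first enzyme of leukotriene synthesis, stood at 2.00 and 2.91 against 1.23 and 2.36. Ptgs2, the inducible cyclooxygenase, was 6.57-fold and 18.5-fold higher in basophils. What part their neutrophil markers have in the Ptgs2 ratio was not tested.

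Several secreted cytokines differed in level between mast cells and annotated basophils. Il4, a type 2 cytokine, stood at 1.51 and 2.42 in mast cells and at 3.94 and 3.18 in basophils. Il13 stood at 0.645 and 1.54 against 2.00 and 2.67. Of 18 cytokines and chemokines tested, 15 of which passed the filter in mast cells, 1, Ccl7, was 4-fold higher in mast cells. In basophils 10 were 4-fold higher, against 0.311% and 3.79% of all genes in the 2 directions. Among the latter, Ccl3 was 15.7-fold and 9.43-fold, Ccl4 14.1-fold and 6.99-fold, Il6 11.2-fold and 5.74-fold and Csf1 11.4-fold and 6.68-fold higher in basophils. Ccl1, a ligand of Ccr8, stood at 5.47 and 5.48 in mast cells, against 0.256 and 2.29 in basophils, and Ccl2, a monocyte chemokine, at 4.84 and 8.92 against 2.00 and 2.87. The neutrophil markers given above were also higher in the annotated basophils, and their part in these cytokine ratios was not tested.

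Mast cells themselves were clustered after integration of the libraries, which gave 8 clusters. Because the clusters were built from these genes, their leading genes and levels are descriptions. Cluster 1 held 178 and 231 mast cells (24.3% and 29.4%) and was led by Cma2, Mcpt9, Xcl1, Mcpt8 and Cd300lb. With Mcpt9, Mcpt2 and Itgae among its 10 leading genes it was called mucosal-like, although its first gene is on the connective tissue list. Its mean log2 ratio over the remaining mast cells was 0.970 for the mucosal list and 0.668 for the connective tissue list. Cluster 2 held 194 and 211 mast cells (26.5% and 26.9%), was led by Ccl7, Mrgprx2, H19, Speer4e and Mrgprb1, and was called connective tissue-like. Its near-equal shares depended on integration: without it, the connective tissue-like cluster held 35.7% and 2.04% of mast cells, and a separate unnamed cluster led by H19, Itga9, Igf2, Ccl7 and Cyp26a1 held 4.10% and 30.4%.

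Of the 6 mucosal genes, 4 (Mcpt1, Mcpt2, Mcpt9 and Itgae) stood higher in the mucosal-like cluster and Itgb7 and Gzmb higher in the connective tissue-like cluster, in both libraries. Mcpt1 had a level of 683 in the mucosal-like cluster and 309 in the connective tissue-like cluster of the F/F library, and of 593 and 319 in the ΔMye library. Mcpt9 stood at 10.97 against 1.15 and at 8.46 against 0.947. Itgae, the integrin alpha chain that binds E-cadherin on epithelium, stood at 2.77 against 0.439 and at 3.26 against 0.515. Itgb7, the beta chain that pairs with Itgae, stood at 0.906 against 1.32 and at 1.24 against 1.75. Gzmb, granzyme B, stood at 4.03 against 6.50 and at 6.56 against 7.87. Mcpt8 was higher in the mucosal-like cluster, at 6.84 against 0.101 and 1.98 against 0.458.

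Mcpt4 had the reverse order, 52.8 in the connective tissue-like cluster against 25.3 in the F/F library and 59.6 against 21.3 in the ΔMye library. The receptor Mrgprb1 was 5.30 and 5.73 log2 units higher there. The monocyte chemokines also followed this cluster, with Ccl2 at 13.5 against 2.40 and 21.0 against 4.81 and Ccl7 at 11.7 against 0.189 and 14.5 against 1.66. Amine genes split between the clusters: Hdc was higher in the connective tissue-like cluster (9.75 against 5.38 and 10.1 against 4.12) and Tph1 in the mucosal-like one (10.4 against 6.01 and 9.32 against 5.57). Among the other connective tissue genes, Cma1, Mrgprb2 and Mrgprx2 were higher in the connective tissue-like cluster in both libraries. Tpsb2 stood at 37.2 against 26.2 and at 39.2 against 38.3. The tryptase Tpsab1 differed little, at 7.25 against 6.92 and 5.47 against 5.98. Cma2 went the other way, at 1.03 against 6.11 and 1.62 against 7.51.

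Other clusters carried further programs or genes of other types. Cluster 5, with 57 and 55 cells, was led by heat shock genes, Hspa1b, Hsph1, Hspa1a, Bag3 and Dnajb1, and stayed unnamed. Cluster 6, with 30 and 34 cells, was led by histone genes, carried Mki67 at 3.35 and 4.57 and Top2a at 7.45 and 7.30, and held a median of 10785 and 27688.5 UMIs per cell. Mcpt1 stood at 627 and 595 in these cells. Cluster 3, with 167 and 159 cells, was shallow, with a median of 1387 and 2659 UMIs, and was led by Tff3, Spink1, Taco1, S100a8 and S100a9. Cluster 4, with 72 and 59 cells, was led by epithelial genes, cluster 7, with 20 and 18, by T cell genes such as Cd3g, and cluster 8, with 14 and 18, by Retnlg, Il1b and MHC class II genes. Clusters 3, 4, 7 and 8 are left out below wherever a value without genes of other types is given, and whether they are doublets or cells with free RNA was not tested.

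**Figure D3:**
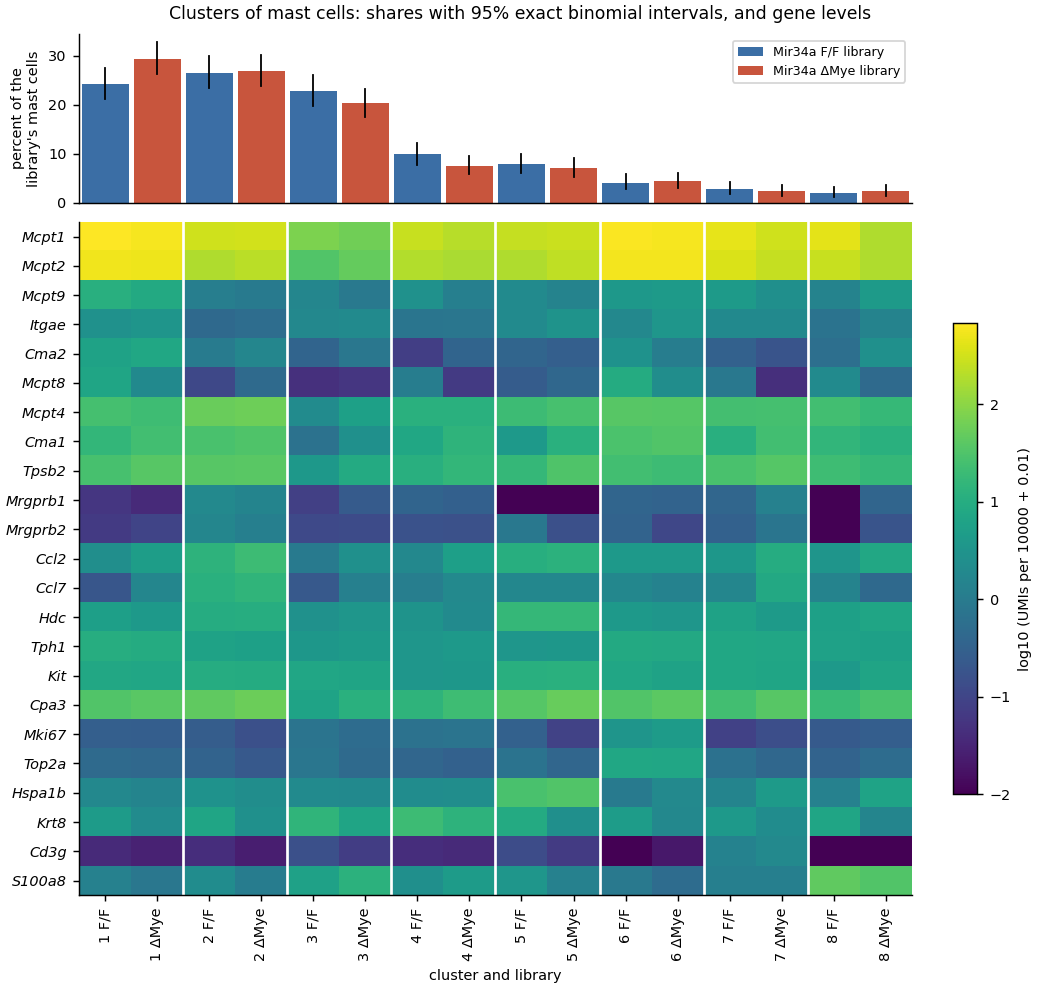
Share of each library's mast cells in the 8 clusters (bars, percent, with 95% exact binomial intervals) and the level of named genes (log10 of UMIs per 10000 with 0.01 added) by cluster and library. Mcpt9 stands highest in cluster 1, Mrgprb1 and Ccl7 in cluster 2, Krt8 in cluster 4, Hspa1b in cluster 5, Top2a in cluster 6, Cd3g in cluster 7 and S100a8 in cluster 8.

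The libraries were set side by side for 2985 genes with a UMI in 25% of mast cells and a level of at least 0.5 in a library. In mast cells of the ΔMye library 16 genes (0.536%) were at least 2-fold higher and 26 (0.871%) at least 2-fold lower than in the F/F library, and the median log2 ratio was -0.00. For 15 of the 16 (all but Csf1) and 26 of the 26, the median ratio of the other cell types had the same sign. Without clusters 3, 4, 7 and 8 the counts were 20 and 31. When the median of the other types was subtracted from each gene's ratio, 4 genes (0.134%) were at least 2-fold higher and 0 lower, namely Egr3, Jchain, Csf1 and Susd1. Of these, only Jchain passed the 25% filter in both libraries. Susd1, for example, was seen before thinning in 11.1% of F/F and 32.6% of ΔMye mast cells, and after thinning in 2.77% and 5.11%. These counts do not separate genotype from library. A gene could pass the filter through the library where it was high alone, and these counts and those of list members below carry that limit. Of all 2985 genes, 1485 were higher and 1500 lower in the ΔMye library, and the counts of list members below are read against these and against 0.536% and 0.871% past 2-fold.

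Egr3, an immediate-early transcription factor, had 323 UMIs (level 0.992) in mast cells of the F/F library and 2912 (3.31) in those of the ΔMye library, a log2 ratio of 1.74 (1.57 to 1.91). After thinning, 7.87% and 16.7% of mast cells held a UMI of it. In the other types the median log2 ratio was 0.11, and 6 of 10 types had the same sign, with basophils highest at 0.90. Within clusters 1, 2, 5 and 6 the log2 ratio was 2.02, 1.75, 2.37 and 1.61, and in cluster 7, led by T cell genes, -0.70 on 28 and 39 UMIs. The nuclear receptors Nr4a3 (1.32 and 3.12, log2 ratio 1.24) and Nr4a2 (0.715 and 1.57, log2 ratio 1.13) were also past 2-fold. Nr4a3 had a median log2 ratio of 0.78 in the other types, with the same sign in 9 of 10 and 2.17 in fibroblasts, and Nr4a2 a median of 0.43, with the same sign in 6 of 10 and 1.80 in basophils. Fos stood at 5.29 and 3.55 and Egr1 at 3.96 and 4.12 in mast cells. Of 14 immediate-early genes, 3 were 2-fold higher and 0 lower, against 0.536% and 0.871% of all genes. Among the 3, Egr3 and Nr4a2 passed the filter on cells with a UMI through the ΔMye library alone. Before thinning, Egr3 was seen in 20.2% of F/F and 51.7% of ΔMye mast cells, and Nr4a2 in 18.3% and 40.4%. Nr4a3, at 29.5% and 62.2%, passed in both libraries. The count of 3 carries that limit. The median log2 ratio of the 14 genes was 0.24, against -0.02 in the other types and -0.00 over all genes in mast cells.

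Csf1, the ligand of the macrophage receptor Csf1r, had 179 UMIs (level 0.550) and 995 UMIs (1.13), a log2 ratio of 1.04 (0.81 to 1.28). The median of the other types was -0.10, and 3 of 9 types with a value had the same sign. It was seen in 4.52% and 7.66% of mast cells after thinning, and 5 cells held 21.8% and 19.1% of its UMIs. In clusters 1 and 2 its log2 ratio was 1.17 and 1.05, and in clusters 4 and 7 it was -0.32 and -0.95, on at most 32 UMIs a library. Il13 was 0.645 and 1.54 (log2 ratio 1.26), with a median of 0.78 over the 6 other types with a value, which all had the same sign. Ccl1 stood alike in the libraries, at 5.47 and 5.48. Of 14 cytokines and chemokines, 11 were higher in the ΔMye library, beside 1485 of 2985 genes in all. Past 2-fold were 2 of them, Il13 and Csf1, against 0.536% of all genes. Both passed the filter on cells with a UMI through the ΔMye library alone. Before thinning, Csf1 was seen in 12.3% of F/F and 28.4% of ΔMye mast cells, and Il13 in 12.8% and 33.2%. The count past 2-fold carries that limit. The median log2 ratio of the 14 genes was 0.60, against 0.10 over the other types and -0.00 over all genes in mast cells.

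Among genes that mark mast cells, Kit stood at 7.28 and 7.32, a log2 ratio of 0.01 (-0.06 to 0.08), and the 4 mast markers had a median of 0.02 and a range of -0.12 to 0.43, the last for Cpa3, against a median of 0.37 in the other types. Of 11 miR-34a targets tested, 0 were past 2-fold, against 0.536% higher and 0.871% lower of all genes, and 9 were higher and 2 lower in the ΔMye library, beside 1485 and 1500 of 2985 genes, with a median log2 ratio of 0.13 against 0.17 in the other types. Of these, Bcl2, an inhibitor of apoptosis, was 0.755 and 1.19 (log2 ratio 0.66) and Foxp1 was 4.96 and 6.01 (0.28). Of 13 IgE receptor and signalling genes, 12 were higher, beside 1485 of 2985 genes, and 0 were past 2-fold, against 0.536% of all genes, with a median of 0.30 against 0.35 in the other types. The kinase Fyn was nearest to 2-fold, at 1.17 and 2.23. Of 5 connective tissue genes 4 were higher, beside 1485 of 2985 genes, with a median of 0.40 against 0.46 in the other types.

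Mcpt8 was lower in mast cells of the ΔMye library, at 3.56 and 1.10, but was seen in 3.35% and 3.45% of them after thinning. Its log2 ratio was -1.79 in cluster 1 and 2.18 in cluster 2, where the F/F library held 6 UMIs. As its UMIs sat in few cells, the ratio rests on those cells.

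Immunoglobulin genes led the higher genes, with Jchain at 1.24 and 7.31 and Igkc at 8.72 and 37.5. In the ΔMye library 5 mast cells held 65.6% of the Jchain UMIs. The log2 ratio of Jchain was 2.56 on summed UMIs, 1.63 with means over cells and 1.65 after thinning, and that of Igkc was 2.10, 1.35 and 1.36. Among the 16 higher genes 6 were immunoglobulin, mitochondrial or ribosomal RNA-like genes, and among the 26 lower genes 0 were. Such genes were 411 of the 32291 genes of the series. That share is over all genes and not over the 2985 genes set side by side here. The lower genes included keratins, with Krt8 at 8.95 and 3.90 and Krt18 at 3.48 and 1.68, and metallothioneins, with Mt1 at 6.76 and 3.11. Pomgnt1, a glycosyltransferase gene that mast cells led when basophils were set aside (17.9-fold and 8.88-fold), stood at 3.51 and 1.61, and was past 2-fold in 0 of the 9 other types with a value. It was also lower in 8 of these 9 types, with a median log2 ratio of -0.41. Adamts6 and Nfkbid, among the higher genes, were over 2-fold higher in 0 other types, while Adamts6 was lower in basophils, at a log2 ratio of -1.47. The sign was the same as in mast cells in 7 of 9 other types for Adamts6 and in 6 of 8 for Nfkbid. Krt8 had a log2 ratio of -1.20 in mast cells and a median of -1.10 in the other types. The summed level of 8 epithelial markers in mast cells was 29.9 and 16.1, beside a median of 33.0 and 15.5 over the other types. That of 8 B and plasma cell markers was 10.2 and 45.3, beside 12.4 and 27.6. Both moved between the libraries with these genes, and their part in the ratios was not tested.

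**Figure D4:**
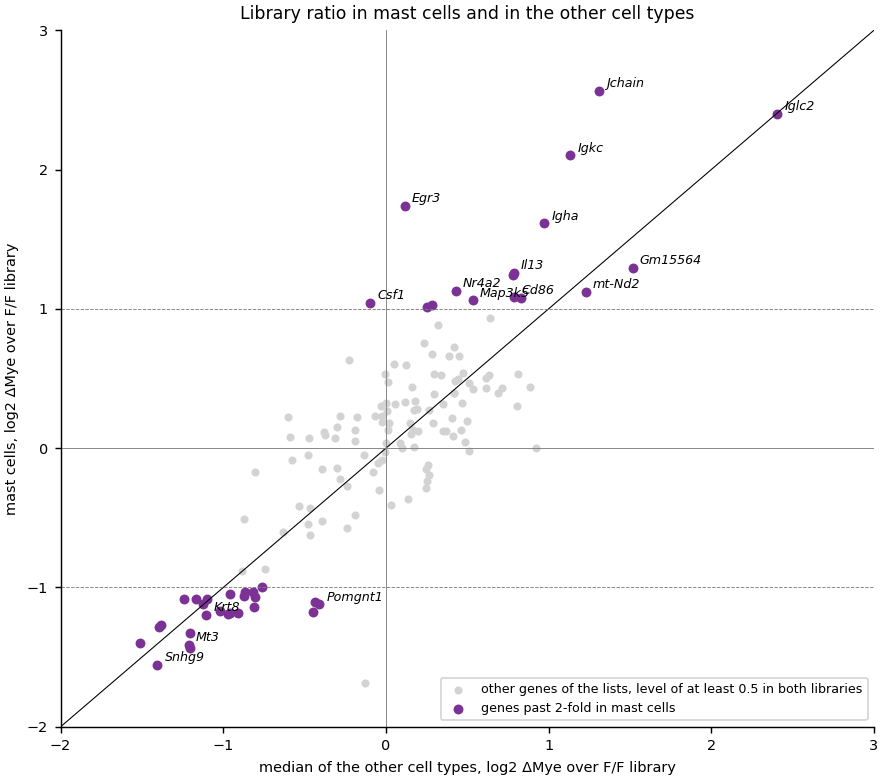
Log2 ratio of the ΔMye over the F/F library in mast cells (vertical) against the median of the other cell types (horizontal), for the 42 genes past 2-fold in mast cells and for other list genes. All of the 42 except Csf1 lie on the same side of 0 on both axes, and Egr3 and Csf1 lie above the diagonal with medians of 0.11 and -0.10 in the other types.

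**Figure D5:**
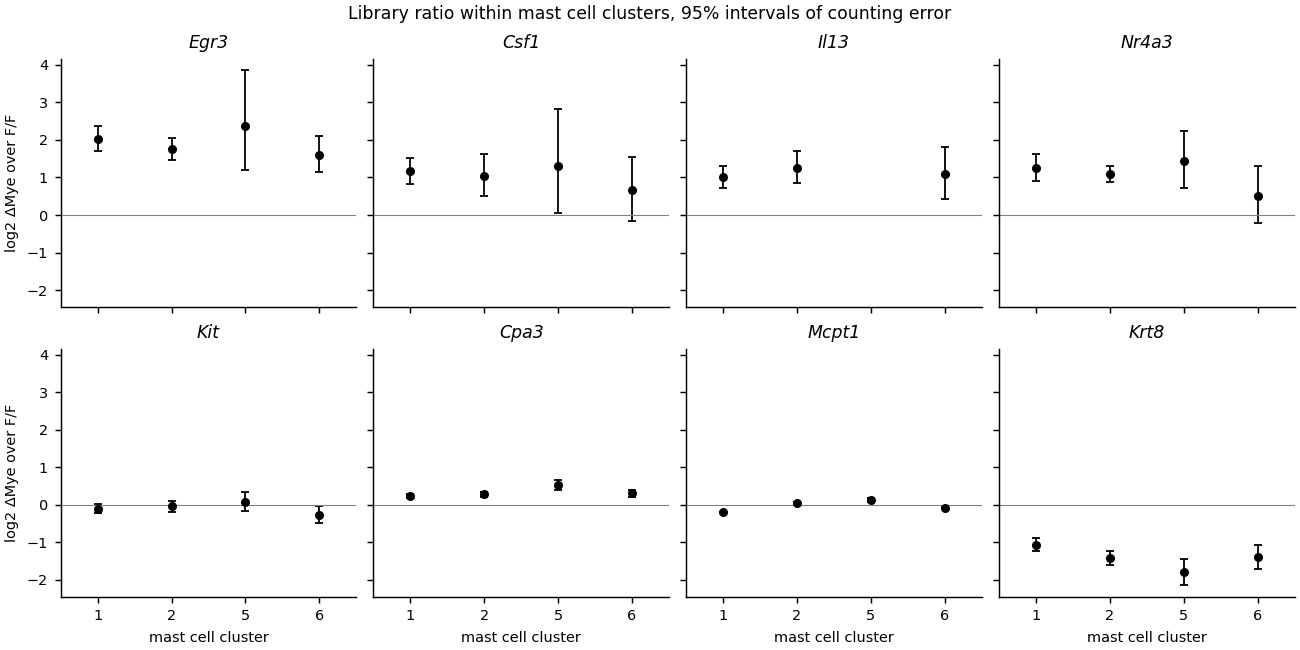
Log2 ratio of the ΔMye over the F/F library within mast cell clusters 1, 2, 5 and 6, with 95% intervals of counting error. Egr3 lies above 0 in all 4 clusters (1.61 to 2.37), Krt8 below 0 in all 4, and Kit between -0.26 and 0.09; Il13 has no point in cluster 5, where the F/F library held 0 UMIs.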

How the data were processed

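Single-cell RNA-seq of tumor cells was measured in 2 libraries. Per the labels and the methods, the authors aligned reads with Cell Ranger 7.2.0 to mm10, kept cells by gene number and mitochondrial share, removed doublets with Scrublet and deposited natural log values of UMIs scaled to 10000 per cell, plus 1. UMIs were recovered from these values by inverting the scaling: every value came out whole within 1.49e-10 of a UMI over 32291 genes and 38883 cells. Cell types are the authors' annotation. 1 deposited annotation column named the library of each cell, and 0 columns of per-sample values were left unused.

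UMIs were summed per cell type and library. Ratios carry 95% exact binomial intervals of the sums, shares exact binomial intervals (Clopper-Pearson), and all cover counting error only, since 1 library per genotype gives no replicate error and no p-value. Mast cells were compared with other types at 4-fold and between libraries at 2-fold, as descriptions. For shares across depths, cells were thinned to 1000 UMIs (seed 1), leaving out shallower cells. The 1517 mast cells were clustered in Seurat 5.3.0 (2000 variable genes, 30 dimensions, resolution 0.5, integration of the libraries). Naming a cluster needed 3 or more markers of a list detected in 10% of its cells, and either a list mean of 1 or more on the log2 scale over the remaining cells or a positive mean together with a list marker in its first 10 genes. This threshold was chosen once the clusters had been seen.

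Named genes are members of the marker and pathway lists, up to 25 genes led by mast cells (also with basophils set aside), 10 in each direction against basophils with a level of at least 1 in the higher type in both libraries, 10 in each direction between libraries (further ones are named where a sentence needs them), 5 leading genes per cluster and 8 genes most like Cpa3, among genes with a level of at least 1 in a group. Mt1 and Susd1 were singled out after their values were seen, as were the cells with high Mcpt8 or Jchain. Members and lists were chosen with earlier results of these data known. Technical genes were 411 immunoglobulin, mitochondrial and ribosomal RNA-like genes. Intervals were tested on simulated data. R 4.3.3, Python 3.11.15, numpy 2.4.6, scipy 1.17.1, pandas 2.3.3 and matplotlib 3.10.9 were used. 2 genes that the naming rule picks are not reported here. Alternatives covered level, cell and gene filters, depth, totals, pseudocount, background and clustering.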

Additional observations from a re-analysis of the deposited data

How the results depend on the processing

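The number of genes led by mast cells, 5, was 11 with means over cells, 15 after thinning, 3 with a pseudocount of 0.1, 1 with a filter of 25% of cells, 8 without mast cell clusters led by markers of another type and 63 against the other types without basophils, the last 2 chosen after the data were seen, as was subtracting the median of the other types below. Genes higher in mast cells than in basophils, 17, numbered 49 with means over cells, 8 with the pseudocount and 4 with the stricter filter, and those higher in basophils, 207, numbered 136 and 123 under the last 2. Between libraries, 16 higher and 26 lower genes became 26 and 51 after thinning, 199 and 51 with the T cell level subtracted, and 4 and 0 net of the median of the other types. The lower genes numbered 58 in cells with at least 500 genes and under 10% mitochondrial UMIs and 15 with the pseudocount. Net of the other types, the log2 ratio changed sign for Iglc2 (-0.0043), Gm15564 (-0.22), mt-Nd2 (-0.11), Gm11808 (0.11) and Gm11290 (0.11). The causes were not tested.

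The mast cell shares of 3.60% and 4.23% were 8.42% and 9.02% without epithelial cells, 4.87% and 5.69% in filtered cells, 2.29% and 2.90% without the 4 clusters, and 9.82% and 22.2% (a difference of 12.4 points) when defined by 3 of 4 markers. The last was not thinned, although the libraries differ in depth, and took in cells of every type. It held 6.76% and 16.2% of epithelial cells and 8.13% and 25.9% of T cells. After thinning, these were 0.446% and 1.37% and 0.799% and 1.29%. Leaving out mast cells with 3 UMIs of another type's markers left 30 and 1 mast cells, 0.153% and 0.00562%, a difference of -0.147 points, and gave no usable gene levels. The mucosal-like share of 24.3% and 29.4% was 10.8% and 14.8% at resolution 1.0 and 18.2% and 33.4% without integration. The connective tissue-like share of 26.5% and 26.9% was 18.2% and 17.2%, then 35.7% and 2.04%, and 19.3% and 18.5% without technical genes, so without integration this cluster held mostly F/F cells. No paired analysis was possible because each genotype had 1 library, and for the same reason no replicate could be left out.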
